A study of Sus scrofa with 36 samples.

Results

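TPRKB and the genes it works with in a tRNA-modifying pathway were followed in the cerebellum of young piglets. The list held 6 genes, TPRKB, TP53RK, OSGEP, LAGE3, OSGEPL1 and YRDC, and 5 of them were matched to one of the 31907 gene identifiers with counts. LAGE3 was not analysed here. TPRKB was selected on the values measured in these piglets, because its transcript level differed between the diet and birth weight groups, so its group levels are a description with no test. The other members were listed for their function, and the question was whether they share the pattern of TPRKB.

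RNA was sequenced from the cerebellum of 36 crossbred piglets of both sexes, born at term on a commercial farm, which entered at 3 days of age and were fed formula for 3 weeks. Normal birth weight (NBW) piglets and small piglets with the head shape of intrauterine growth restriction (IUGR, which arises spontaneously in pigs) received fat either from vegetable oils (VEG) or from bovine cream (MILK). The groups are named by diet and weight, such as VEG-NBW, and held 9 piglets each, with 1 library per piglet. The formulas shared their protein, lactose, vitamin and mineral sources and differed in fat. All piglets were formula-fed, so no group stands for sow rearing. The piglets came from several litters, but litter is not in the labels.

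KEOPS is a protein complex conserved from archaea to mammals. It places threonylcarbamoyl groups on adenosines next to the anticodon of tRNAs that read codons beginning with A, a modification that steadies codon reading during translation. YRDC first makes the activated threonylcarbamoyl group, OSGEP is the catalytic subunit that transfers it, TP53RK is a kinase-like ATPase bound to OSGEP, and TPRKB is the small subunit that binds TP53RK. LAGE3 and GON7 complete the complex, while OSGEPL1 is a relative of OSGEP that carries out the transfer in mitochondria. In people, inherited defects of KEOPS subunits are known to cause a childhood syndrome with a small brain and kidney disease.

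Total counts on genes ranged from 15516541 to 23027502 in 33 libraries, with 26.7% to 30.5% of reads not assigned to a gene. In piglets 202 (VEG-NBW), 210 (VEG-IUGR) and 213 (MILK-NBW) that share was 43.6%, 64.3% and 31.5%. These 3 libraries stood apart from their groups and were left out, which leaves 9 piglets in MILK-IUGR and 8 in each other group. The study also left out 1 library in each of the same groups for low RNA integrity, without naming them. Granule neuron, Purkinje cell, glial and oligodendrocyte markers were present in every group. The summed oligodendrocyte markers had medians of 15091 CPM (counts scaled to a common library total) in VEG-NBW, 16456 in VEG-IUGR, 20201 in MILK-NBW and 18976 in MILK-IUGR. Those of astrocyte and Bergmann glia markers were 6300 CPM, 6724, 8216 and 7122 in the same order of groups. Both lists had their highest median in MILK-NBW, with overlapping ranges, and their part in the results was not tested.

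The values of the members in the 3 libraries left out were unlike those in the other 33. Piglet 202 held 49.8 CPM of TPRKB and piglet 213 held 27.6, above the range of 14.5 to 24.4 in the 33, whereas piglet 210 had a count of 0, which allows up to 0.378 CPM (3 counts, counting error only). OSGEP followed the same course, with 18.9 and 15.8 CPM in piglets 202 and 213, a range of 5.65 to 10.7 in the 33 and a count of 0 in piglet 210. YRDC also had a count of 0 in piglet 210. TP53RK and OSGEPL1, in contrast, were counted at 26.7 and 31.8 CPM in piglet 210, above the 33 libraries in both cases. In piglet 202 OSGEPL1, at 27.6 CPM, was also above the 33, while YRDC (20.3) and TP53RK (13.2) were below them. TP53RK was below them in piglet 213 as well (14.5 CPM). Piglet 210 had 6513 genes with a count, against 18635 to 19682 in the 33 libraries. The libraries left out therefore move some members up or down together and others the opposite way, and which members these are differs between the libraries. A relation among members computed with them differs from one computed without them, as given beside the results.

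**Figure D1:**
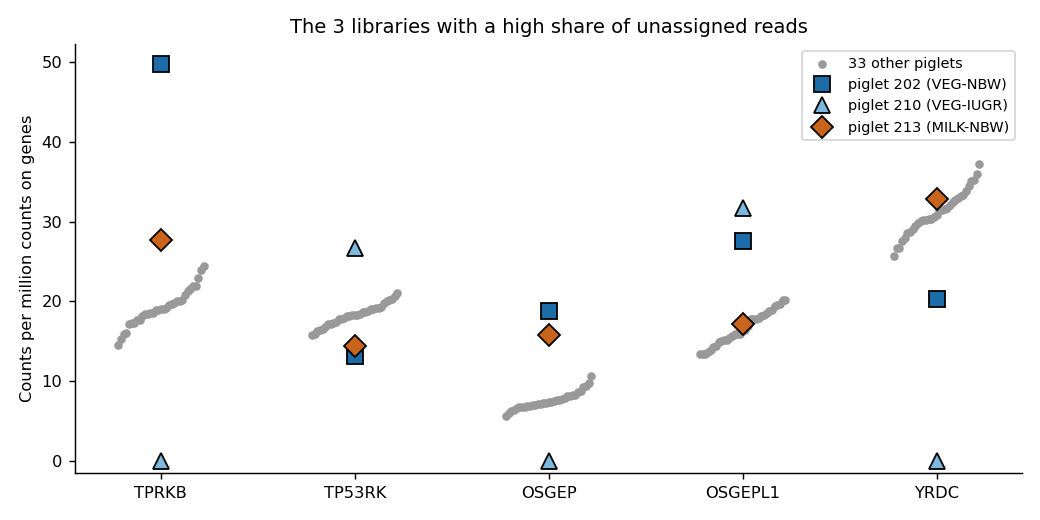
Level of each member in CPM of the counts on genes (vertical axis) in the 33 libraries kept, as grey points in ascending order, and in piglets 202, 210 and 213, as coloured symbols. Piglet 210 lies at 0 for TPRKB, OSGEP and YRDC and above all grey points for TP53RK and OSGEPL1, and piglet 202 reaches 49.8 CPM for TPRKB.

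TPRKB (ENSSSCG00000008297, Sscrofa11.1 chromosome 3, 69235111 to 69243709) was lowest in NBW piglets fed milk fat in the 33 libraries. Levels are given as normalised counts, counts divided by the size factor of the library, in the 33 libraries. In VEG-NBW the lowest, median and highest piglets had 333, 379 and 442 TPRKB counts, and in MILK-NBW 262, 298 and 352. In VEG-IUGR these were 313, 343 and 388, and in MILK-IUGR 327, 345 and 460. The ranges of all 4 groups overlapped, but MILK-NBW was shifted down, and when each MILK-NBW piglet was set against each VEG-NBW piglet it was the lower one in 62 of 64 pairs. These pairs leave out piglet 213 of MILK-NBW (27.6 CPM) and piglet 202 of VEG-NBW (49.8 CPM), both above the 33 libraries. Mean levels were 380.3 ± 35.95 (SD, n = 8) in VEG-NBW, 364 ± 41.2 (n = 9) in MILK-IUGR, 343 ± 24.2 (n = 8) in VEG-IUGR and 300.2 ± 28.9 (n = 8) in MILK-NBW. In this order each of the first 3 groups lies within 1 SD of the next, and the step from VEG-IUGR down to MILK-NBW exceeds the SD of either group. Because TPRKB was chosen by its group pattern, the pair count and this step come with the choice and are no test. In whole tissue, fewer cells of a type that carries the transcript and less of it per cell cannot be told apart.

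The edgeR estimate for TPRKB in MILK-NBW against VEG-NBW was −0.34 on the log2 scale (SE 0.07), and in MILK-IUGR against VEG-IUGR it was 0.09. The interaction of diet and birth weight, the difference between these diet effects, was 0.43 (SE 0.10). TPRKB was chosen by these differences, so they carry no test. Across all 15559 genes tested with edgeR, 0.00% passed an adjusted p of 0.05 for the interaction and 0.00% for MILK-NBW against VEG-NBW, while 6.07% and 6.70% passed an unadjusted p of 0.05. Of 25708 genes fitted with DESeq2, 2 passed the adjusted threshold in each of these comparisons. With voom 0 and 1 of 15559 passed. Piglet 207 of MILK-IUGR had the highest TPRKB of the 33 libraries, 460 normalised counts, and without it the interaction of TPRKB was 0.38 and the MILK-NBW difference −0.34. With all 36 libraries these were 0.73 and −0.48.

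Sex was not used to choose the members, so it could be tested for all 5. TPRKB averaged 359 normalised counts in females and 402 in males of VEG-NBW, but 294 and 304 in MILK-NBW, 340.1 and 345 in VEG-IUGR, and 363 and 365 in MILK-IUGR (n = 3 to 5 per sex and group). The estimate for males against females was 0.06 (SE 0.05) with an edgeR adjusted p of 0.999975. In edgeR 0 of 5 members passed for sex at an adjusted or at an unadjusted p of 0.05, whereas 0.161% of all genes passed the first and 2.94% the second. The voom fit gave OSGEPL1 an unadjusted p of 0.0181 for sex, which did not pass after adjustment.

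**Figure D2:**
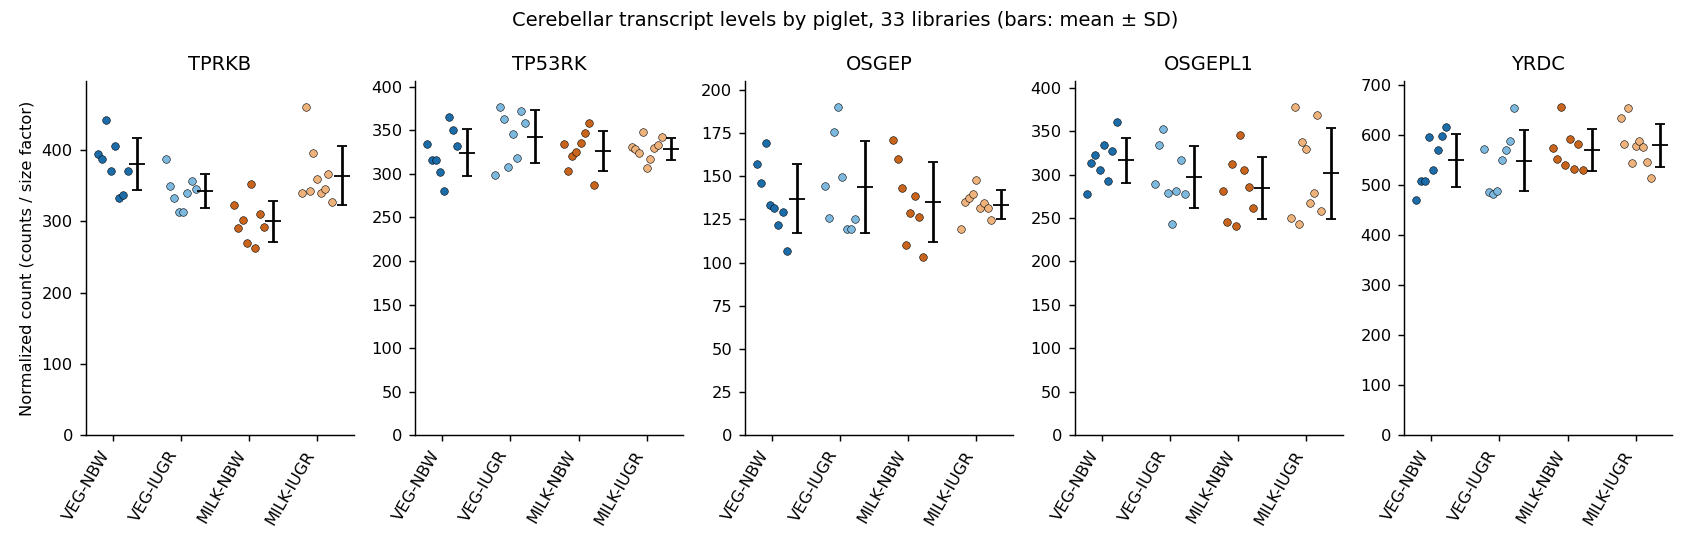
Normalised count (vertical axis, from 0) of the 5 members in each piglet of the 4 groups, 33 libraries, with the group mean ± SD as a bar beside the points. TPRKB has its lowest mean, 300.2, in MILK-NBW, whereas the group means of the other members lie closer together.

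The partner and catalytic subunits of the complex did not share the order of TPRKB. Among all genes tested, 7.00% had their 4 group means in that order, so a different order is the usual case. TP53RK (ENSSSCG00000007452, chromosome 17, 48814402 to 48817984), the direct partner of TPRKB, had medians of 324 normalised counts in VEG-NBW, 352 in VEG-IUGR, 329 in MILK-NBW and 330 in MILK-IUGR. Its 4 ranges overlapped almost fully, from 280.2 in the lowest piglet to 376 in the highest, and MILK-NBW piglets were lower in 29 of 64 pairs. Mean TP53RK was 324 ± 27.0 (SD, n = 8) in VEG-NBW and 326 ± 23.1 (n = 8) in MILK-NBW. Of the 5 members TP53RK varied least between piglets within groups, with a biological coefficient of variation of 7.51%, against 9.12% for TPRKB, 9.10% for YRDC, 12.1% for OSGEPL1 and 13.6% for OSGEP.

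OSGEP (ENSSSCG00000002138, chromosome 7, 78454667 to 78462260), the catalytic subunit, had the fewest counts, 94 to 187 per library, so that counting error alone is 8.61% at its median count. Its medians were 132, 135, 133 and 135 normalised counts with VEG for NBW and IUGR and with MILK for NBW and IUGR. The ranges overlapped, and the SD was 8.29 (n = 9) in MILK-IUGR and 20.0 to 26.8 (n = 8 each) in the other groups. That difference in spread was not tested. MILK-NBW piglets had less OSGEP than VEG-NBW piglets in 34 of 64 pairs.

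YRDC (ENSSSCG00000040425, chromosome 6, 93829320 to 93833776), which supplies the activated group, had medians of 550.5, 561, 564 and 578 normalised counts in the same order of groups. Its lowest piglet had 471 and its highest 656, and the ranges of all groups overlapped. Mean YRDC was 549.6 ± 52.7 in VEG-NBW and 570.1 ± 41.6 in MILK-NBW (SD, n = 8 each), the opposite direction to TPRKB, and MILK-NBW piglets were lower in 26 of 64 pairs. Because no transcript lengths were used, these levels are not compared between genes.

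OSGEPL1 (ENSSSCG00000016043, chromosome 15, 94328924 to 94359328), the mitochondrial relative, was the 1 other member whose group means stood in the order of TPRKB. The lowest, median and highest piglets had 277, 318 and 361 normalised counts in VEG-NBW, 243, 286 and 353 in VEG-IUGR, 241, 284 and 346 in MILK-NBW, and 243, 279 and 377 in MILK-IUGR. All 4 ranges overlapped, and MILK-NBW piglets were lower in 50 of 64 pairs. Mean OSGEPL1 was 317 ± 25.8 in VEG-NBW, 301.3 ± 52.5 in MILK-IUGR, 297 ± 35.5 in VEG-IUGR and 285 ± 35.6 in MILK-NBW (SD, n = 8 or 9). The steps between neighbouring groups are all smaller than 1 SD. The same order of means was found in 7.00% of all genes tested. By medians OSGEPL1 did not keep this order, since MILK-IUGR was lowest at 279, whereas TPRKB had its lowest median in MILK-NBW. The MILK-IUGR mean includes piglet 207, whose 377 was the highest OSGEPL1 value. The highest group mean exceeded the lowest by 11.13% for OSGEPL1, compared with 26.7% for TPRKB, 7.54% for OSGEP, 5.65% for TP53RK and 5.55% for YRDC.

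None of the 4 other members passed the edgeR test in any diet or birth weight comparison. For MILK-NBW against VEG-NBW the estimates were −0.17 (SE 0.09) for OSGEPL1, −0.02 (SE 0.11) for OSGEP, 0.02 (SE 0.06) for TP53RK and 0.06 (SE 0.07) for YRDC, on the log2 scale. The smallest edgeR adjusted p was 0.747, for OSGEPL1, with an unadjusted p of 0.0809. The 95% intervals were −0.11 to 0.14 for TP53RK, −0.24 to 0.21 for OSGEP, −0.08 to 0.19 for YRDC, and −0.35 to 0.02 for OSGEPL1. Whether a member differed from TPRKB was not tested, since TPRKB was chosen by this difference.

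For the interaction the estimates were 0.19 (SE 0.13) for OSGEPL1, 0.02 (SE 0.09) for YRDC, −0.08 (SE 0.08) for TP53RK and −0.08 (SE 0.15) for OSGEP. Their edgeR adjusted p-values lay between 0.811 and 0.976. The 95% intervals were −0.25 to 0.09 for TP53RK, −0.17 to 0.21 for YRDC, −0.40 to 0.23 for OSGEP and −0.07 to 0.45 for OSGEPL1.

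In the remaining comparisons the estimates of the 4 members lay between −0.10 and 0.08 for MILK-IUGR against VEG-IUGR, between −0.09 and 0.08 for VEG-IUGR against VEG-NBW, and between −0.01 and 0.10 for MILK-IUGR against MILK-NBW. For diet over both weights they lay between −0.07 and 0.07, and for birth weight over both diets between 0.00 and 0.04. In edgeR 0 of 4 passed at an adjusted p of 0.05, and 0 of 4 at an unadjusted p of 0.05, in each of these 7 comparisons. Among all genes the share passing the adjusted threshold was 0.00% in every one of them, and the share passing the unadjusted threshold was 3.92%, 2.37%, 6.27%, 4.29% and 2.21% in the order just given. DESeq2 and voom also gave 0 of 4 at an adjusted p of 0.05, while over all genes each passed 2 for MILK-IUGR against MILK-NBW. When only the 2 groups were fitted, the unadjusted edgeR p of OSGEPL1 for MILK-NBW against VEG-NBW was 0.0446 and the adjusted p 0.603.

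**Figure D3:**
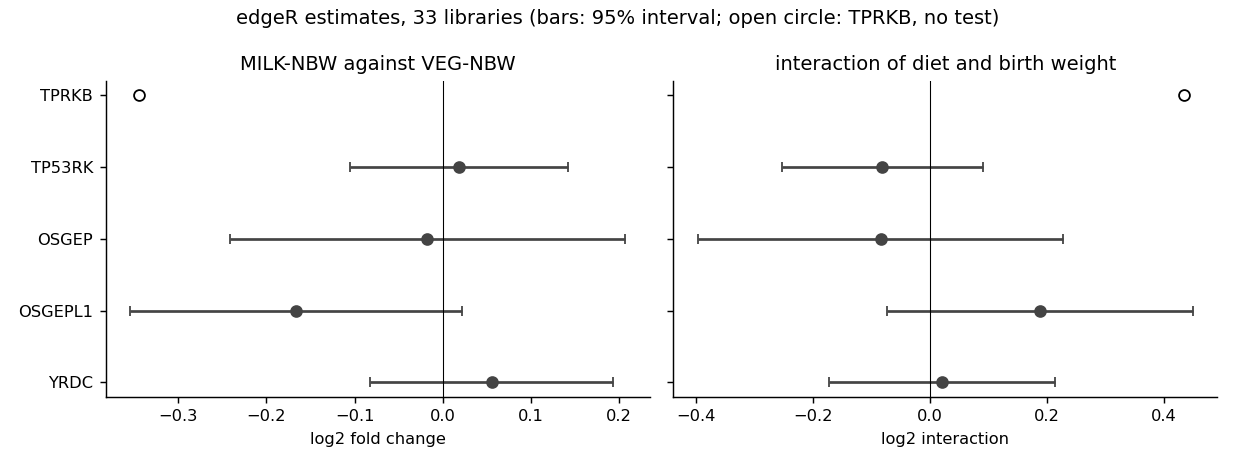
edgeR estimates on the log2 scale (horizontal axes) for MILK-NBW against VEG-NBW, left, and for the interaction of diet and birth weight, right, 33 libraries. Filled circles with bars are the 4 other members with their 95% intervals, and the open circle is TPRKB, shown without a test at −0.34 and 0.43. All 4 intervals include 0 in both panels.

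Neighbouring and overlapping genes bear on these counts, since the strand setting of the counting is not given in the sources used here. In the RefSeq annotation of Sscrofa11.1, TPRKB and TP53RK overlap no other gene. The span of OSGEP shares 272 bases with APEX1, a DNA repair enzyme, and the span of OSGEPL1 shares 7561 bases with ANKAR and 7726 with PMS1, a mismatch repair gene. That of YRDC shares 2803 bases with MANEAL and 11 with C6H1orf122. Reads of these stretches may belong to either gene, so the levels of OSGEP, OSGEPL1 and YRDC are uncertain to that extent. In MILK-NBW against VEG-NBW the edgeR estimates were 0.00 for APEX1, −0.05 for ANKAR, −0.11 for PMS1 and 0.06 for MANEAL, and none of the 4 passed an adjusted p of 0.05 or an unadjusted one. The nearest genes with counts on either side of TPRKB are DUSP11 and ALMS1. DUSP11 gave −0.15 (SE 0.10) and ALMS1 −0.15 (SE 0.09), in the direction of TPRKB, with edgeR adjusted p-values of 0.785 and 0.767. STAMBP, the next gene with counts beyond DUSP11, gave 0.03 (SE 0.07), with an edgeR adjusted p of 0.954.

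Variation between piglets of the same group and sex was not used to choose TPRKB, and gives a further way to ask whether members move together. Deviations of log2 CPM from the group and sex means were compared over the 33 libraries. For OSGEPL1 and TPRKB, Pearson's r was 0.50 (permutation p = 0.00474) and Spearman's rho 0.45 (permutation p = 0.00987). Among all other genes the 95th percentile of r with TPRKB was 0.425 and the highest 0.745, and OSGEPL1 stood at percentile 97.6. The other members gave r of 0.13 (OSGEP, permutation p = 0.460), −0.01 (YRDC, permutation p = 0.941) and −0.11 (TP53RK, permutation p = 0.531), with rho of 0.09 (p = 0.647), −0.02 (p = 0.908) and −0.06 (p = 0.733). TP53RK, the binding partner of TPRKB, thus did not vary detectably with it.

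The relation of OSGEPL1 with TPRKB was weaker without the most extreme piglets. Without the 2 piglets whose TPRKB lay farthest from the median, r was 0.28. Leaving out extreme values narrows the range and can lower r by itself, so this does not decide how many piglets carry the relation. Piglet 207 had the highest TPRKB and also the highest OSGEPL1 of the 33 libraries, 460 and 377 normalised counts, and without it alone r was 0.29. Its summed oligodendrocyte markers were 29224 CPM and its astrocyte markers 9798 CPM, against medians of 18596 and 6994 in the other 32, and 3 of the 32 were higher for each. Its meninges and vessel wall markers, 285 CPM, were the lowest of the 33 (median of the others 576). The part of these markers in the relation was not tested. Within single groups r was −0.14 in VEG-NBW, 0.42 in VEG-IUGR, 0.51 in MILK-NBW and 0.79 in MILK-IUGR, the group of piglet 207.

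The same relation was tested across all genes in edgeR as a slope within groups and sex. It is the log2 change per 1 SD of TPRKB log2 CPM, with the SD taken over all libraries of the fit, group differences included. The slope was 0.12 (SE 0.04) for OSGEPL1, with an unadjusted p of 0.00666 and an adjusted p of 0.157 in edgeR, and without piglet 207 it was 0.07 with an adjusted p of 0.593. Slopes of the other members were 0.04 (SE 0.06) for OSGEP, 0.00 (SE 0.04) for YRDC and −0.02 (SE 0.03) for TP53RK. In edgeR 0 of 4 members passed at an adjusted p of 0.05 and 1 of 4 at an unadjusted p of 0.05, against 0.0257% and 15.0% of all genes. PMS1, which overlaps OSGEPL1, had a slope of 0.10, with an unadjusted p of 0.0294 and an adjusted p of 0.275 in edgeR. Among the 10 pairs of members, OSGEP and YRDC gave r of −0.39 (permutation p = 0.0382), rho of −0.35 (permutation p = 0.0637) and r of −0.36 without the 2 farthest piglets. TP53RK and OSGEPL1 gave r of 0.29 (permutation p = 0.102), rho of 0.37 (permutation p = 0.0355) and r of 0.33 without the 2 farthest. These permutation p-values are not adjusted over the 10 pairs.

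**Figure D4:**
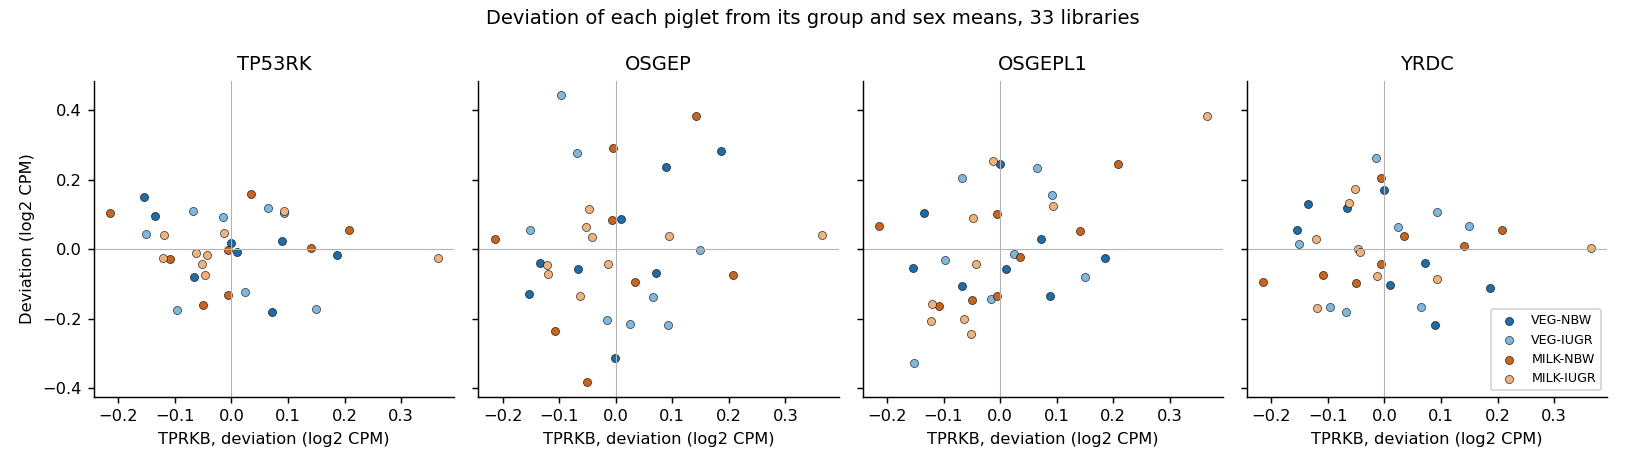
Deviation of each of the 33 piglets from its group and sex means in log2 CPM, TPRKB on the horizontal axes and the other members on the vertical axes, coloured by group. Points scatter without direction for TP53RK, OSGEP and YRDC (r of −0.11, 0.13 and −0.01). For OSGEPL1 they rise (r of 0.50), with r of 0.29 without the MILK-IUGR piglet at the upper right, piglet 207.

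With the libraries of piglets 202, 210 and 213 put back, more slopes passed. The SD of TPRKB was taken anew in each set of libraries, so the sizes of slopes from different sets are not in the same unit. Over all 36 libraries 4 of 4 members passed the edgeR test of the slope, with 1.37 for OSGEP, 0.98 for YRDC, −0.09 for TP53RK and −0.12 for OSGEPL1, where 88.2% of all genes passed as well. Without piglet 210 alone, 3 of 4 passed, with 0.32 for OSGEP, 0.17 for OSGEPL1 and −0.08 for TP53RK, where 52.2% of all genes passed.

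The wider set of tRNA modification genes was described in the same way. Of 81 genes listed, 71 had an identifier with counts and 68 were tested. In edgeR 0 of 68 passed an adjusted p of 0.05 in any comparison. In MILK-NBW against VEG-NBW, 8 of 68 were lower and 1 was higher at an unadjusted p of 0.05, where 4.61% of all genes were lower and 2.09% higher. The estimate was below 0 for 45 of 68, with a median of −0.06, against 0.00 over all genes. Over all 36 libraries 0 of 68 were lower and 0 higher at that threshold, where 0.883% of all genes passed it in either direction. Without piglet 210 alone 4 were lower and 2 higher, where 6.93% of all genes passed.

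Enzymes that act on the product of KEOPS gave estimates near 0 in the same comparison. CDKAL1, which adds a methylthio group to it, gave −0.03 (SE 0.10), and TRMO, which methylates it, gave −0.01 (SE 0.08), with edgeR adjusted p-values of 0.967 and 0.992. GON7 was not analysed here. Among the genes lower at an unadjusted p were PUS3, a pseudouridine synthase, at −0.38 (SE 0.12, edgeR adjusted p = 0.720) and TRMT11, a tRNA guanosine methyltransferase subunit, at −0.35 (SE 0.12, edgeR adjusted p = 0.720). ELP2 and ELP4, both subunits of Elongator, which modifies wobble uridines, gave −0.18 and −0.14. The dihydrouridine synthases DUS1L and DUS3L gave −0.13 and −0.24, and PUS10 gave −0.19. URM1, the sulphur carrier for wobble uridine thiolation, gave 0.15.

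For the interaction 3 of 68 were higher and 0 lower at an unadjusted edgeR p of 0.05, where 3.54% of all genes were higher and 2.53% lower. The list's median was 0.08, against 0.00 over all genes. The 3 genes were ELP2 at 0.23, TRMT61B, a methyltransferase of mitochondrial tRNA, at 0.29 and ALKBH8, which completes wobble uridine side chains, at 0.24, each with an edgeR adjusted p of 0.793. ELP2 also had a slope on TPRKB within groups of 0.09, with an unadjusted p of 0.00688 and an adjusted p of 0.159 in edgeR. These counts and medians describe the list, and it was not tested against other genes.

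**Figure D5:**
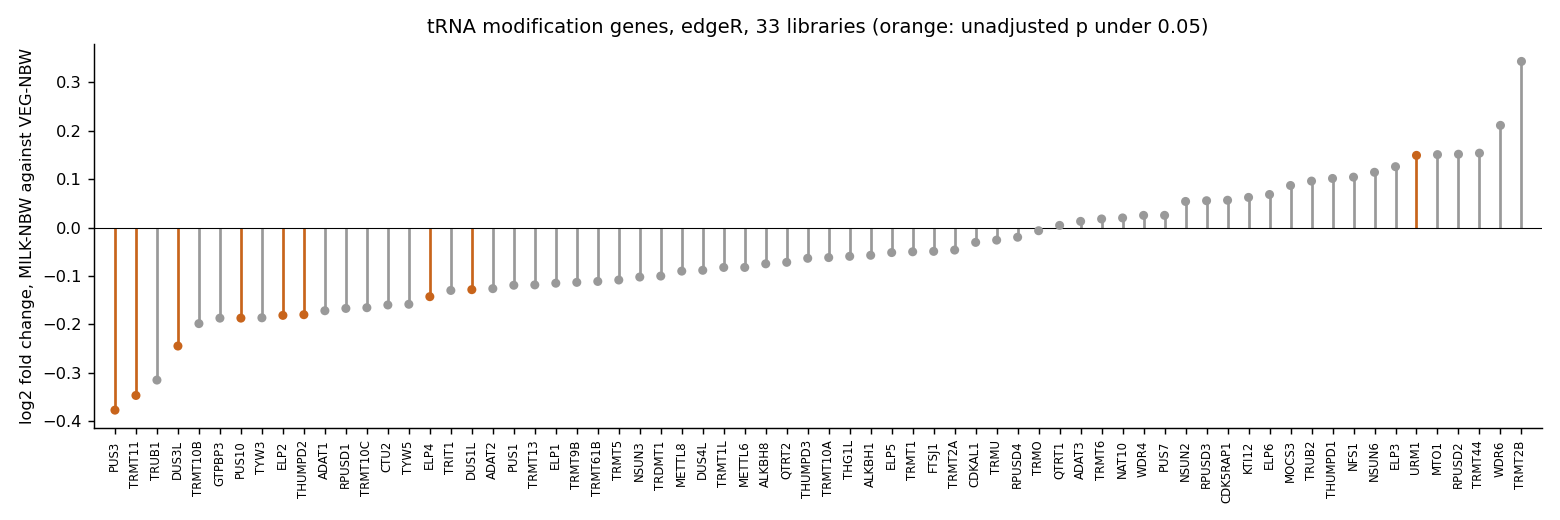
edgeR log2 fold change of MILK-NBW against VEG-NBW (vertical axis) for the 68 tRNA modification genes tested, in ascending order, 33 libraries. Orange marks the 8 lower and 1 higher genes with an unadjusted p under 0.05, none of which passed after adjustment; 45 of the 68 lie below 0.

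The genes whose levels were most like TPRKB were none of its partners. By Pearson's r of log2 CPM over the 33 libraries, given as a description, these were RBM41, an RNA-binding protein, at 0.763, TAF1D, a subunit of an RNA polymerase I initiation factor, at 0.755, MTRF1L, a mitochondrial release factor, at 0.751, ENSSSCG00000023596 at 0.748, and KLHDC2, a substrate receptor of a ubiquitin ligase, at 0.746. Differences between groups and between libraries enter both genes of each of these pairs. Over all other genes the median r was −0.03 and the 95th percentile 0.483, while OSGEPL1 had 0.551, OSGEP 0.123, YRDC −0.07 and TP53RK −0.13. Mean RBM41 was 232 ± 28.8 normalised counts in VEG-NBW and 185 ± 26.0 in MILK-NBW (SD, n = 8 each). Mean MTRF1L was 340.1 ± 35.8 and 296 ± 29.0 in the same groups. Since the 5 genes were picked for their likeness to TPRKB with group differences included, a group pattern like that of TPRKB comes with the choice.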

How the data were processed

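Per the labels, RNA was extracted from the cerebellum of each piglet and sequenced as read pairs. For every piglet the authors deposited untransformed counts per Ensembl pig gene without normalisation. The submitters' processing notes name Trim Galore, HISAT2, HTSeq, DESeq2 and the build Sscrofa11.1; versions, annotation release and strand setting are not given in the sources used here. Of 31907 identifiers, 15029 were matched to a symbol, and coordinates are RefSeq gene spans on Sscrofa11.1. Lines for reads without a gene were left out of library sizes.

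A library was left out where its unassigned share stood apart from its group (Dixon's gap over range above 0.493 for 9 piglets). The gap was 0.786 for piglet 202, 0.946 for piglet 210 and 0.508, close to the limit, for piglet 213. With litter not in the labels, litter was not modelled, so the p-values treat piglets that may share a litter as independent. Tests used edgeR 4.0.16 in R 4.3.3 (TMM, filterByExpr with a minimum count of 10, quasi-likelihood F test, two-sided, Benjamini-Hochberg over all genes tested), with a term for sex. Main effects of diet and weight came from an additive model and the other comparisons from 4 group means. Deviations used log2 CPM with a prior count of 2 and 100000 permutations within groups. Normalised counts were divided by DESeq2 1.42.0 size factors. Alternatives were DESeq2, limma 3.58.1 voom with quality weights, size factors in edgeR, no sex term, no filter, 2-group fits and all 36 libraries; chosen after seeing the data were the sets without piglet 210 or 207 and the unassigned share as a covariate. Fits were tested on simulated counts.

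The members, the tRNA list, the 33 libraries and the tests were chosen with earlier results of these data known. Named genes were the members, GON7, CDKAL1, TRMO, up to 10 list genes with the smallest unadjusted p under 0.05 for the interaction or MILK-NBW against VEG-NBW, the 5 genes most like TPRKB, and neighbours of the members.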

Additional observations from a re-analysis of the deposited data

Results flagged for a closer look

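No single piglet passed as apart from its group in the normalised counts of the 5 members, in 20 gene and group combinations tested over the 33 libraries by Dixon's gap over range at its 95% critical value. For TPRKB in MILK-IUGR, piglet 207 had 460 normalised counts and the next piglet 396, which stayed below that value.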

How the results depend on the processing

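Over all 36 libraries, or 35 without piglet 210, 4 and 3 of the 4 other members and 63 and 42 of the 68 tRNA modification genes had a slope on TPRKB, in either direction, that passed the test, against 0 and 0 in the 33; among all genes 88.2% and 52.2% passed. With all 36 libraries the mean normalised counts were 433 for TPRKB and 158 for OSGEP in VEG-NBW, and 291 for TPRKB and 466.2 for YRDC in VEG-IUGR. Mean TPRKB was then lowest in VEG-IUGR, with 307 in MILK-NBW, whereas its median was still lowest in MILK-NBW (291, against 328 in VEG-IUGR). The TPRKB interaction was 0.73 and its MILK-NBW difference −0.48, the OSGEP interaction turned to 0.16, and the slopes on TPRKB turned to −0.12 for OSGEPL1 and 0.98 for YRDC; the median interaction of all genes was then 0.14. The YRDC interaction turned to −0.022 in 35 libraries. The OSGEP difference in MILK-NBW turned to 0.021 with voom and 0.037 with the unassigned share as a covariate, which also turned the YRDC slope to 0.00318. The cause of these changes was not tested. In 266 other comparisons of a value or count with an alternative, it kept its direction and its side of the threshold or stayed within the spread between piglets. The 5 remaining ones, slopes on TPRKB, passed the test with 36 or 35 libraries and not with 33. In the fits of the 33 libraries 0 of 212 tests of the 4 members for diet and birth weight passed an adjusted p of 0.05 (smallest 0.468). No paired analysis was possible because the piglet numbers pair no animals across groups. Between 94 and 731 counts per member and library limit the precision of a single value to a counting error of 4.23% to 8.61% at the median counts.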
